A study of Homo sapiens with 4 samples.

Results

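To describe how CST1, LCN15 and 8 genes of the activin/nodal mesendoderm program responded to TGFβ inhibition during hematopoietic differentiation, the levels of 10 named genes were read out of a table of 58365 rows. The genes were CST1, LCN15, CER1, EOMES, GSC, MIXL1, LEFTY1, LEFTY2, TDGF1 and NODAL, taken by their symbols. Each symbol had 1 row, annotated as protein coding. The genes were chosen by their FPKM in these same SB and DMSO libraries, so their own differences are given as a description, without a test.

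RNA was sequenced from H1 cells, a human embryonic stem cell line, in 4 libraries collected at day 8 of differentiation. All cultures received 40 ng/ml activinA and 50 ng/ml BMP4 for 2 days, and then 40 ng/ml VEGF and 50 ng/ml bFGF for 3 days. During the last 3 days VEGF and bFGF were kept at the same doses, without SB431542 in the 2 DMSO libraries and with it in the 2 SB libraries. SB431542 is a small molecule that blocks the type I receptors encoded by ACVR1B, TGFBR1 and ACVR1C. Activin A is itself a ligand of this pathway, and both groups had received it before the inhibitor was added. H1 is 1 cell line, and the labels do not say whether libraries of a group came from separate cultures, so p-values measure the spread between these libraries, which may be technical. The study's results text describes collecting cells positive for the endothelial surface protein CD31 for sequencing, which the sample labels leave out.

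Estimated from the step size of low values, the libraries held between about 19650000 and 26100000 fragments, with SB replicate 1 the shallowest and SB replicate 2 the deepest. All 9 endothelial markers were measured and none was at 0. PECAM1, which encodes CD31, lay between 153 and 197 FPKM (fragments scaled by transcript length and library depth) over the 4 libraries. Of the 8 blood markers, RUNX1 lay between 33.6 and 69.8 FPKM, while PTPRC, which encodes the leukocyte protein CD45, reached at most 0.202 FPKM. Of the pluripotency markers, NANOG reached at most 0.0261 FPKM, while LIN28A lay between 42.6 and 76.0 FPKM and DNMT3B between 36.5 and 53.1 FPKM. The 17 listed pluripotency genes summed to between 154 and 210 FPKM per library.

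Activin and nodal bind a pair of type II and type I receptors, which phosphorylate SMAD2 and SMAD3, and nodal also needs a co-receptor such as TDGF1. With SMAD4 and partners such as FOXH1, these SMADs switch on genes of the primitive streak, among them EOMES, GSC and MIXL1, and the secreted inhibitors LEFTY1, LEFTY2 and CER1, which damp the signal. In the embryo and in differentiating stem cells this program precedes mesoderm and definitive endoderm. CST1 encodes cystatin SN, a secreted inhibitor of cysteine proteases, and LCN15 encodes a lipocalin, a family of small secreted carriers of hydrophobic molecules.

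At day 8 the CST1 and LCN15 transcripts were abundant in DMSO-treated cells and near 1 FPKM in SB-treated cells, while most of the mesendoderm genes were scarce in both. With detection set at 1 FPKM or more in both libraries of a group, 3 of the 10 genes were detected with DMSO (CST1, LCN15 and MIXL1) and 1 with SB (LEFTY1). With the limit at 0.1 FPKM these counts were 7 and 6, and at 5 FPKM they were 2 and 0. Of the 10 genes, 5 were lower in both SB libraries than in both DMSO libraries, 1 was higher, and in 4 the groups overlapped. Over the 14909 genes with a mean of at least 1 FPKM in a group, 16.0% were lower and 21.5% higher without overlap. Only 5 of the 10 genes reached that filter, and TDGF1, MIXL1, CST1 and LEFTY1 did so through 1 group alone. Bulk RNA cannot tell fewer expressing cells from less RNA per cell, here and in every result that follows.

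**Figure D1:**
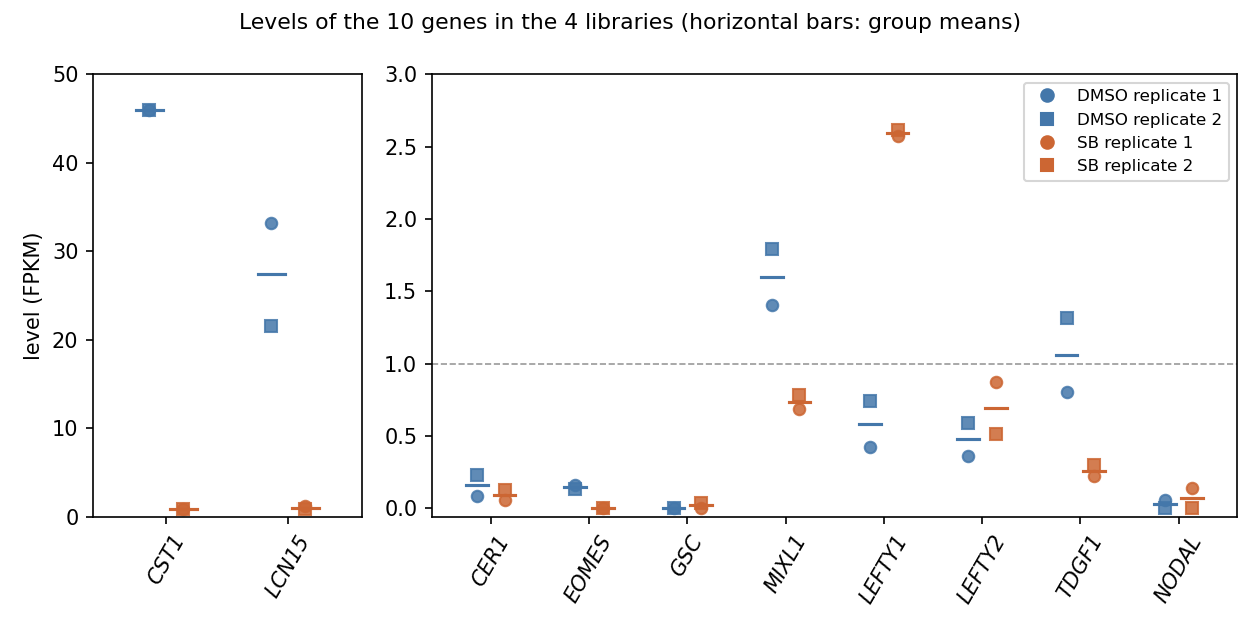
Level of each of the 10 genes in FPKM, with CST1 and LCN15 on a scale up to 50 FPKM and the other 8 on a scale up to 3 FPKM. Blue is DMSO and orange SB, circles are replicate 1 and squares replicate 2, horizontal bars are group means of 2 libraries, and the dashed line marks 1 FPKM. CST1 and LCN15 lay above 21 FPKM in both DMSO libraries and below 1.3 FPKM in both SB libraries, and LEFTY1 was the only gene above 1 FPKM in both SB libraries.

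CST1 (ENSG00000170373.8) lies on the minus strand of chromosome 20, at chr20:23747553-23751268 on GRCh38. Its level was 46.0 FPKM in each DMSO library, 0.948 FPKM in SB replicate 1 and 0.890 FPKM in SB replicate 2. The DMSO libraries were almost equal and both SB libraries were far below them. The group means were 46.0 ± 0.0340 FPKM (SD, n = 2) with DMSO and 0.919 ± 0.0417 FPKM (SD, n = 2) with SB, a 50.0-fold difference. On the log2(FPKM + 1) scale the SB value was lower by a difference of -4.61, with -4.59 between the libraries numbered 1 and -4.64 between those numbered 2. With a pseudocount of 0.1 in place of 1 this difference was -5.50. Among all rows CST1 ranked 2206 and 1969 by level in the DMSO libraries, and 14328 and 14527 in the SB libraries. If every fragment came from its longest transcript, the values amount to at most 544 and 506 fragments with DMSO and 9 and 11 with SB.

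CST1 belongs to a cluster of near-identical cystatin genes, so fragments could be shared between copies. Of the 50-base windows in its transcripts, 23.6% also occurred in another gene, nearly all of them in CST4, a salivary cystatin (23.3%). The coding sequences of CST1 and CST4, 423 bases each without the stop codon, were 92.7% identical, with 31 differing bases and an identical run of 152 bases. CST4 itself stood at 0.689 and 1.56 FPKM with DMSO and at 0.109 and 0.165 FPKM with SB. It was lower in both SB libraries, by a log2 difference of -0.87 ± 0.30 (SE), with a limma adjusted p of 0.451. CST2, which shared 4.62% of the windows, was listed at 0 in all libraries. CST1 was thus the most abundant of these 3 copies in every library, and how the counting split shared fragments is not given in the sources used here.

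LCN15 (ENSG00000177984.6) lies on the minus strand of chromosome 9, at chr9:136759634-136766255. Its levels were 33.3 and 21.6 FPKM in DMSO replicates 1 and 2, and 1.28 and 0.847 FPKM in SB replicates 1 and 2. In either group the library numbered 1 was the higher, and the groups lay far apart. The means were 27.4 ± 8.24 FPKM (SD, n = 2) and 1.06 ± 0.306 FPKM (SD, n = 2), a 25.8-fold difference. The log2 difference was -3.76, with -3.91 and -3.61 within numbers 1 and 2. These values amount to at most 2133 and 1292 fragments with DMSO and 66 and 58 with SB. None of the 50-base windows of LCN15 occurred in another gene.

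The 250 bases before the RefSeq start of LCN15 are shown because they hold letters known from SMAD binding and from the core promoter, at chr9:136764519-136764768 on GRCh38.p14, minus strand, 5′ to 3′. Capitals mark CAGAC, the core SMAD motif, and TATAAA, the TATA box, on either strand.
LCN15: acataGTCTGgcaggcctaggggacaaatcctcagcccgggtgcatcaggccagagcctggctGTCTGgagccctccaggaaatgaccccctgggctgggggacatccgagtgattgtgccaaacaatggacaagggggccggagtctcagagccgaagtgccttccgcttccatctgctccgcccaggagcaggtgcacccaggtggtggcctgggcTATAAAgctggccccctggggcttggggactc
CAGAC was present with its first base 245 and 187 bases before the start, in both cases on the other strand, and TATAAA 32 bases before it. Over 35116 RefSeq promoters of the same length, 38.0% held CAGAC and 10.7% held TATAAA. In GENCODE 29 an exon of a noncoding LCN15 transcript covers this window. RefSeq gave a start for 7 of the 10 genes, not for CST1, LEFTY1 or LEFTY2.

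**Figure D2:**
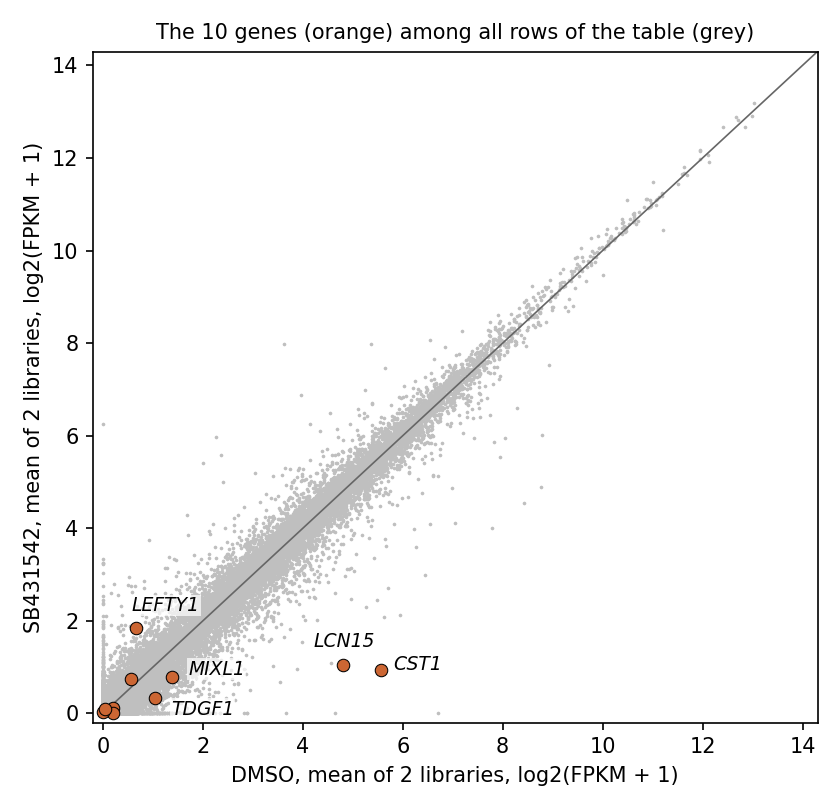
Mean log2(FPKM + 1) of the 2 DMSO libraries (horizontal axis) against that of the 2 SB libraries (vertical axis) for all 58365 rows in grey, with the 10 genes in orange and the line of equality. CST1 and LCN15 lie far under the line, LEFTY1 lies above it, and the other 7 genes lie near the origin.

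By likeness of pattern over the 4 libraries, the genes nearest to CST1 and those nearest to LCN15 overlapped. Likeness was the root mean square difference between log2(FPKM + 1) values centred on each gene's mean, over 10344 genes with a mean of at least 5 FPKM in a group. This describes 4 libraries and mostly ranks genes by the size of their difference. Nearest to CST1 were PVT1_1 (0.30), APOA1 (0.41), LCN15 (0.48), AL591623.2 (0.52) and AFP (0.55). Nearest to LCN15 were AL591623.2 (0.12), APOA1 (0.19), SOST (0.19), AFP (0.34) and HTRA1 (0.44). APOA1, the main protein of high-density lipoprotein, stood at 64.2 and 56.3 FPKM with DMSO and at 3.31 and 3.39 FPKM with SB. SOST, a secreted WNT inhibitor, stood at 24.9 and 20.8 FPKM with DMSO and at 1.24 and 1.01 FPKM with SB. APOA1, AFP and AL591623.2 appeared on both lists.

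Because APOA1 and AFP are markers of endoderm and liver, the whole endoderm list was set beside CST1 and LCN15. APOA1 and AFP came up through the size of their fall in these same libraries, so their calls are not independent of that choice. Of 23 listed genes, 20 were tested, and 16 of these were lower without overlap, 4 overlapped and 0 were higher, against 16.0% lower and 21.5% higher of all tested genes. Of the 16, FOXA2, FOXA3, HNF4A, APOB, APOC3, SERPINA1, FGA and FGB passed the filter on low values through the DMSO group alone. Their direction was thus partly set by the filter, and the list was chosen with earlier results of these data known. The summed level of the list was 494 and 484 FPKM with DMSO and 190 and 148 FPKM with SB. In limma, 4 of the 20 fell and 0 rose past the adjustment over all genes, at which 0.107% of all tested genes fell and 0.0268% rose (0.134% in either direction). At an unadjusted p under 0.05, 15 of the 20 were lower, against 9.96% of all tested genes in either direction. The 4 were APOA1, AFP, TTR and APOA2, which encode plasma proteins made by yolk sac and liver. APOA1 fell by 3.81 on the log2 scale (SE 0.17, adjusted p 0.0201), and AFP, fetal albumin, fell by 3.55 (SE 0.19, adjusted p 0.0232). TTR, a thyroid hormone carrier, stood at 45.0 and 57.9 FPKM with DMSO and at 5.45 and 5.55 FPKM with SB, with an adjusted p of 0.0353. APOA2 stood at 120 and 141 FPKM with DMSO and at 14.5 and 18.2 FPKM with SB, with an adjusted p of 0.0365. Without any 1 of the 4 libraries, or without the filter on low values, 0 of the endoderm genes passed the adjustment.

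The endoderm regulators gave a mixed picture. SOX17, also an endothelial factor, stood at 53.3 and 17.5 FPKM with DMSO and at 49.3 and 17.3 FPKM with SB, so that it separated the libraries by number and not by group. GATA4 stood at 35.5 and 22.9 FPKM with DMSO and at 9.68 and 6.05 FPKM with SB, with an adjusted p of 0.187. FOXA2 stood at 2.73 and 1.59 FPKM with DMSO and at 0.547 and 0.234 FPKM with SB, with an adjusted p of 0.291. No endoderm marker was at 0 in all libraries, and APOC3 was listed at 0 in both SB libraries. The median log2 difference of the tested endoderm genes was -1.19, against 0.04 over all tested genes. Of the mesenchymal markers, 7 of 8 tested genes were lower without overlap, against 16.0% of all tested genes. At an unadjusted p under 0.05, 5 of the 8 were lower, against 9.96% of all tested genes in either direction. The summed level of the mesenchymal markers was 780 and 636 FPKM with DMSO and 514 and 423 FPKM with SB, and 0 passed the limma adjustment. The part of other cell types in the CST1 and LCN15 differences was not tested.

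The genes around CST1 and LCN15 were set beside them by position. Within 250 kb of CST1 the table held 18 rows, of which 2 were tested, CST4 and CST3. The low level of CST4, with means of 1.12 FPKM with DMSO and 0.137 FPKM with SB, bounds its difference on the log2(FPKM + 1) scale. CST3, the widely expressed cystatin C, stood at 151 and 139 FPKM with DMSO and at 132 and 123 FPKM with SB, with an adjusted p of 0.818. Within 250 kb of LCN15, 22 of 49 rows were tested, and their log2 differences ran from -1.05 to 0.15. Of these 22 genes, 8 were lower, 1 was higher and 13 overlapped, against 16.0% lower and 21.5% higher of all tested genes. In limma 0 passed the adjustment, and 5 had an unadjusted p under 0.05, against 9.96%. Among the lower neighbours, NALT1, LINC01451 and PTGDS passed the filter on low values through the DMSO group alone, as did CST4 near CST1. Their direction was thus partly set by the filter. CCDC183, the protein-coding neighbour with the lowest log2(FPKM + 1) difference, stood at 19.6 and 14.4 FPKM with DMSO and at 8.64 and 6.84 FPKM with SB. By the ratio of means PTGDS differed more, with 1.24 FPKM with DMSO and 0.355 FPKM with SB. FAM69B, on the other side of LCN15, had a log2 difference of 0.04.

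**Figure D3:**
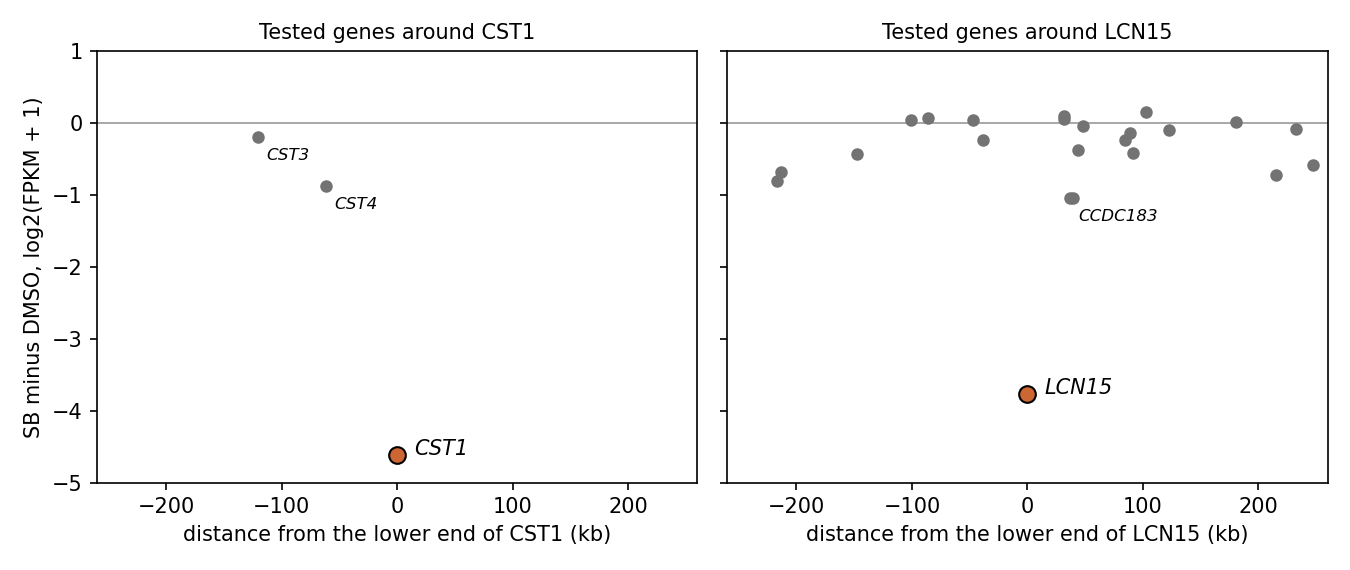
Difference SB minus DMSO in mean log2(FPKM + 1) for tested genes within 250 kb, against the distance in kb of each gene's start coordinate from that of CST1 (left) or LCN15 (right). CST1 at -4.61 and LCN15 at -3.76 (orange) lie below their neighbours (grey), none of which is under -1.05 on this scale, where genes of low level cannot reach large differences.

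Among the relatives of CST1 and LCN15, some were lower and some higher with SB, and none passed the adjustment. Of 13 other cystatin genes, 4 were tested, 2 of them lower and 2 higher without overlap (16.0% and 21.5% of all tested genes), and 7 were listed at 0 in all libraries. CST7, the leukocyte cystatin, stood at 0.627 and 0.530 FPKM with DMSO and at 2.05 and 2.14 FPKM with SB, a log2 difference of 0.97 ± 0.21 (SE) with a limma adjusted p of 0.243. CSTB, an intracellular cystatin, stood at 34.2 and 35.0 FPKM with DMSO and at 42.1 and 43.6 FPKM with SB, with an adjusted p of 0.66. Both were higher with SB, in contrast to CST1 and CST4. Of 19 other lipocalin genes 4 were tested, and 3 of these were lower and 1 higher without overlap. RBP4, the retinol carrier of plasma, stood at 3.73 and 1.96 FPKM with DMSO and at 0.195 and 0.393 FPKM with SB, with an adjusted p of 0.217. PTGDS, a prostaglandin synthase of the lipocalin fold, had a log2 difference of -0.72, and APOM, an apolipoprotein, one of -0.45. LCN2, an iron-scavenging lipocalin of neutrophils, went the other way, from 2.55 and 1.11 FPKM to 3.05 and 4.94 FPKM, with an adjusted p of 0.544. In limma 0 genes of either family passed the adjustment. At an unadjusted p under 0.05 there were 2 of the 4 tested genes of each, against 9.96% of all tested genes. CST4, RBP4 and PTGDS passed the filter on low values through the DMSO group alone, and CST7 through the SB group alone. The direction of these genes was thus partly set by the filter.

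Turning to the mesendoderm program, its transcription factors were low at day 8. MIXL1 (ENSG00000185155.11, chr1:226223618-226227054, plus strand), a homeobox factor of the primitive streak, stood at 1.41 and 1.79 FPKM with DMSO and at 0.685 and 0.783 FPKM with SB. Both SB libraries lay below both DMSO libraries. The means were 1.60 ± 0.274 and 0.734 ± 0.0687 FPKM (SD, n = 2 each), a 2.18-fold difference, and the log2 difference was -0.58. These values amount to at most 60 and 71 fragments with DMSO and 23 and 35 with SB.

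EOMES (ENSG00000163508.12, chr3:27715949-27722711, minus strand), the T-box factor that starts mesendoderm specification, stood at 0.161 and 0.134 FPKM with DMSO and was listed at 0 in both SB libraries. The DMSO values amount to at most 12 and 10 fragments. On the longest transcript 3 fragments would be worth 0.0492 and 0.0370 FPKM in SB replicates 1 and 2, below both DMSO values, and this limit covers counting error only. A value of exactly 0 in such a table can also be a failed estimate. GSC (ENSG00000133937.4, chr14:94768216-94770230, minus strand), a homeobox factor of the organizer, was listed at 0 in all libraries except SB replicate 2, where its 0.0393 FPKM equals 1 fragment. Levels of GSC below the worth of 3 fragments, which lay between 0.117 and 0.155 FPKM by library, could therefore be missed at this depth.

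The remaining mesendoderm list, without the 10 genes, held 24 genes, of which 12 were tested. In limma 0 passed the adjustment, and 5 were lower and 0 higher at an unadjusted p under 0.05, against 9.96% of all tested genes in either direction. Of the 12, 5 were lower and 2 higher without overlap, against 16.0% and 21.5% of all tested genes. The median log2 difference of the 12 was -0.39. Some of the lower genes, OTX2 among them, passed the filter on low values through the DMSO group alone. HAND1, a factor of extraembryonic and lateral mesoderm, stood at 11.6 and 11.1 FPKM with DMSO and at 2.34 and 1.98 FPKM with SB (adjusted p 0.0646). OTX2, a homeobox factor of anterior identity, stood at 1.32 and 1.56 FPKM with DMSO and at 0.464 and 0.444 FPKM with SB (adjusted p 0.373). PDGFRA, a receptor of paraxial mesoderm, had a log2 difference of -0.83 (adjusted p 0.322), and DKK1, a WNT inhibitor, one of -0.68 (adjusted p 0.374). The streak factors T and MESP1 were scarce in both groups: T, or brachyury, reached at most 0.0806 FPKM, and MESP1 lay between 0.341 and 0.554 FPKM. With quantile normalization 1 of the 12 genes passed the adjustment.

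Among the secreted inhibitors, the paralogs LEFTY1 and LEFTY2 differed in pattern. LEFTY1 (ENSG00000243709.1, chr1:225886282-225911382, minus strand) stood at 0.427 and 0.739 FPKM with DMSO and at 2.57 and 2.61 FPKM with SB. It was the only one of the 10 genes higher in both SB libraries. The means were 0.583 ± 0.221 and 2.59 ± 0.0258 FPKM (SD, n = 2 each), a 4.45-fold difference, with a log2 difference of 1.19 (1.32 within number 1 and 1.05 within number 2). LEFTY2 (ENSG00000143768.12, chr1:225936598-225941489, minus strand) stood at 0.364 and 0.592 FPKM with DMSO and at 0.875 and 0.513 FPKM with SB. Its groups overlapped, and its log2 difference was 0.46 within number 1 and -0.07 within number 2.

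The coding sequences of the LEFTY genes, 1098 bases each, were 97.2% identical, with 31 differing bases and an identical run of 300 bases. Of the 50-base windows of LEFTY1, 26.8% occurred in LEFTY2 and 45.3% in AL117348.2, an overlapping gene model. AL117348.2 was at or near 0 in DMSO replicate 1, at 0.269 FPKM in DMSO replicate 2, at 0.283 FPKM in SB replicate 1 and at 0.407 FPKM in SB replicate 2. Fragments may thus have been split among the 3, and the separate levels of LEFTY1 and LEFTY2 are uncertain. At most they amount to 14 and 23 fragments with DMSO and 68 and 92 with SB for LEFTY1, and to between 18 and 35 in any library for LEFTY2.

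CER1 (ENSG00000147869.4, chr9:14719724-14722717, minus strand), an antagonist of nodal, BMP and WNT, has 1 transcript, so its values convert to whole fragments: 2 and 5 with DMSO, and 1 and 3 with SB. In FPKM these were 0.0876 and 0.229 with DMSO and 0.0547 and 0.124 with SB. The groups overlapped, and no difference was detectable at this depth. The upstream bases of CER1 and MIXL1 are shown because both held CAGAC and AATNCACA, the FOXH1 motif, which capitals mark on either strand. They lie at chr9:14722734-14722983 on the minus strand and at chr1:226223414-226223617 on the plus strand of GRCh38.p14, the latter ending before the first GENCODE exon.
CER1: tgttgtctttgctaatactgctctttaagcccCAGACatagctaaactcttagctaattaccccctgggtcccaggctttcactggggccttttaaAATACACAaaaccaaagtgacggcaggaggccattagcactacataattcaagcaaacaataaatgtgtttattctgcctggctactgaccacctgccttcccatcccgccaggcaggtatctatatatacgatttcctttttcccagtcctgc
MIXL1: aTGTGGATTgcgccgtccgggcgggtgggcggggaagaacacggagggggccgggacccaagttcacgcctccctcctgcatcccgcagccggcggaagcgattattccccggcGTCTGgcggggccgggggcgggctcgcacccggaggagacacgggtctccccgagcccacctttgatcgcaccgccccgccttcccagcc
In CER1 the first base of CAGAC lay 218 bases and that of AATNCACA 154 bases before the RefSeq start, and in MIXL1 they lay 136 and 249 bases before it. AATNCACA was present in 2.89% of the 35116 promoters. Of the other matched genes, GSC and NODAL held CAGAC, EOMES and GSC held TATAAA, and TDGF1 held neither at either of its 2 starts. AGGTGTGA, the T-box motif, present in 0.786% of promoters, was in none of the 7. These matches are not evidence of binding, and their part in the levels of CER1 and MIXL1 was not tested.

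NODAL and its co-receptor were also scarce. NODAL (ENSG00000156574.9, chr10:70432315-70447951, minus strand) stood at 0.0593 FPKM in DMSO replicate 1 and 0.143 FPKM in SB replicate 1, at most 2 and 4 fragments, and at or near 0 in both libraries numbered 2. TDGF1 (ENSG00000241186.9, chr3:46574534-46582463, plus strand), which RefSeq lists as CRIPTO, stood at 0.804 and 1.31 FPKM with DMSO and at 0.224 and 0.298 FPKM with SB. Both SB libraries were lower, with means of 1.06 ± 0.361 and 0.261 ± 0.0520 FPKM (SD, n = 2 each), a 4.06-fold difference. Its level is uncertain, since 34.0% of its windows also occurred in the pseudogene TDGF1P3, which stood at 0.14 FPKM in DMSO replicate 1 and was listed at 0 in the other 3 libraries. Of the other ligands, GDF3 stood at 3.67 and 3.31 FPKM with DMSO and at 4.16 and 3.83 FPKM with SB. GDF1, which overlaps CERS1 and is uncertain for that reason, stood at 3.07 and 3.67 FPKM with DMSO and at 0.0792 and 0.447 FPKM with SB (adjusted p 0.117). INHBA, which encodes the subunit of activin A, reached at most 0.127 FPKM.

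Levels of the receptors, of SMAD2 to SMAD4 and of FOXH1 are given by their range. ACVR1B lay between 8.33 and 9.62 FPKM and TGFBR1 between 10.2 and 14.7 FPKM over the 4 libraries, while ACVR1C, the third receptor that SB431542 blocks, reached at most 0.0287 FPKM. The type II receptors ACVR2A and ACVR2B lay between 2.54 and 4.45 FPKM and between 5.68 and 6.90 FPKM. SMAD2 lay between 25.8 and 38.7 FPKM, SMAD3 between 9.37 and 18.4 FPKM, SMAD4 between 32.0 and 34.9 FPKM, and FOXH1 between 1.86 and 2.62 FPKM. The limma adjusted p-values of the tested receptors and of these SMADs and FOXH1 lay between 0.775 and 0.994.

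The inhibitors with the smallest unadjusted p on the pathway list were SMAD7, SKIL and PMEPA1, none of which passed the adjustment. SMAD7, the inhibitory SMAD, stood at 29.3 and 19.6 FPKM with DMSO and at 7.23 and 3.40 FPKM with SB, a log2 difference of -2.05 ± 0.37 (SE, adjusted p 0.193). SKIL, a SMAD corepressor, stood at 7.77 and 11.1 FPKM with DMSO and at 2.10 and 2.00 FPKM with SB, a log2 difference of -1.76 ± 0.22 (SE, adjusted p 0.0983). PMEPA1, a membrane protein that sequesters SMADs, stood at 39.0 and 22.2 FPKM with DMSO and at 9.95 and 5.90 FPKM with SB, a log2 difference of -1.81 ± 0.37 (SE, adjusted p 0.218). All 3 were thus lower in each SB library than in either DMSO library, and so were FST and BAMBI. FST, or follistatin, stood at 1.49 and 1.41 FPKM with DMSO and at 0.618 and 0.651 FPKM with SB (limma adjusted p 0.476). BAMBI, a decoy receptor, had a log2 difference of -0.33 (limma adjusted p 0.671). Other inhibitors of the pathway differed from these. LEFTY1 was higher, LEFTY2 overlapped, and FSTL3, a follistatin-like antagonist of activin, stood at 8.4 and 7.01 FPKM with DMSO and at 8.69 and 8.93 FPKM with SB. SKI, a corepressor related to SKIL, overlapped between the groups. Over the 21 tested of 29 listed pathway genes, 0 passed the limma adjustment, 5 were lower and 1 higher at an unadjusted p under 0.05 (9.96% of all tested genes in either direction), and the median log2 difference was -0.07. Without overlap, 7 of the 21 were lower and 3 higher, against 16.0% and 21.5% of all tested genes. Among the lower genes, GDF1 and FST passed the filter on low values through the DMSO group alone, so their direction was partly set by it.

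**Figure D4:**
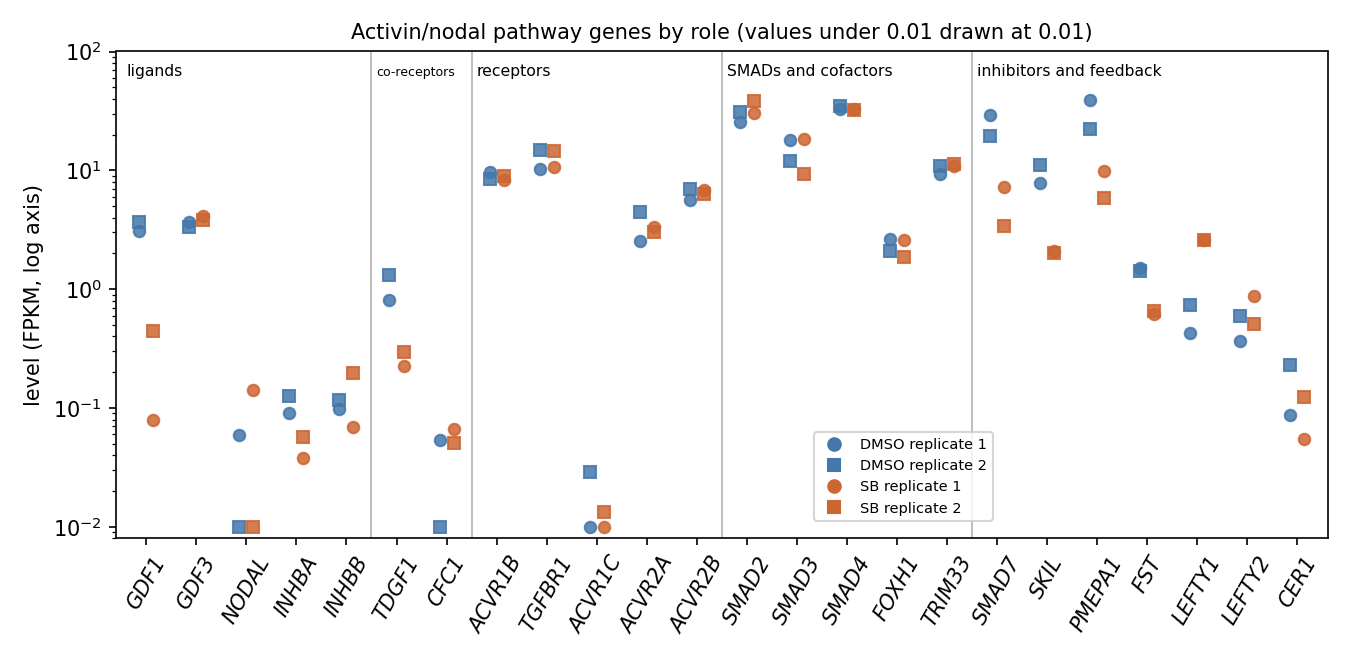
Level in FPKM on a log axis of 24 activin/nodal pathway genes ordered by role, with DMSO in blue, SB in orange, circles for replicate 1 and squares for replicate 2, and values under 0.01 drawn at 0.01. ACVR1B, TGFBR1, SMAD2 and SMAD3 overlap between the groups, SMAD7, SKIL, PMEPA1 and FST are lower in both SB libraries, and LEFTY1 is higher.

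Pluripotency genes were set beside the mesendoderm genes because TDGF1, LEFTY1 and LEFTY2 are also expressed in undifferentiated stem cells. Of 17 listed genes 9 were tested, 5 of them higher and 2 lower without overlap (21.5% and 16.0% of all tested genes), and the median log2 difference was 0.22. POU5F1, the stem cell factor OCT4, stood at 0.442 and 0.473 FPKM with DMSO and at 1.23 and 1.60 FPKM with SB (adjusted p 0.403). LIN28A, an RNA-binding protein of early cells, stood at 42.6 and 51.0 FPKM with DMSO and at 65.2 and 76.0 FPKM with SB (adjusted p 0.409). VRTN, a listed gene that was lower, stood at 3.85 and 2.66 FPKM with DMSO and at 2.16 and 1.27 FPKM with SB (limma adjusted p 0.543). ZFP42 was the other tested gene lower without overlap. LEFTY1 had the direction of POU5F1 and LIN28A, and TDGF1 that of VRTN and ZFP42. In limma 0 of the 9 passed the adjustment, and 2 were higher at an unadjusted p under 0.05, against 9.96% of all tested genes in either direction. POU5F1 passed the filter on low values through the SB group alone and ZFP42 through the DMSO group alone, so their direction was partly set by it. The part of remaining undifferentiated cells in the LEFTY1 difference was not tested.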

How the data were processed

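RNA from H1-derived cells, 2 DMSO and 2 SB libraries grouped by their titles, was sequenced by a service provider according to the study. The authors deposited FPKM values, 1 column per library, with no scaling between libraries stated. The submitters' processing notes name BWA, Bowtie, RSEM and hg19, with no versions or roles. However, GENCODE 29 held 95.5% of the 58274 versioned identifiers, 99.8% of those at its GRCh38 position, so coordinates are given on GRCh38, counted from 1. Whether counting used strand is not given in the sources used here.

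Values were taken as log2(FPKM + 1), which understates the change of low genes. Genes with a mean of at least 1 FPKM in a group (14909) were fitted in limma 3.58.1 under R 4.3.3 (empirical Bayes with a trend, group as the only term, two-sided, Benjamini-Hochberg over all tested genes, threshold 0.05), and the fit was tested on simulated data. The 10 genes and all gene lists were chosen with earlier results of these data known.

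FPKM carries no depth. Depth was estimated from single-exon genes with 1 transcript over 500 bases, assuming fragments of 280 bases: between 95.5% and 96.4% of low values came within 0.1 of a whole number of fragments up to 4. Fragment numbers of genes with several transcripts assume the longest and are upper limits. Fragments were not identified as single molecules, so such limits cover counting error only.

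Named besides the 10 genes are list genes past the adjustment and up to 4 per list by smallest unadjusted p, cystatins and lipocalins of at least 1 FPKM, the 5 genes nearest in pattern, tested neighbours within 250 kb, markers and receptors. Other pathway and mesendoderm genes shown by role (GDF3, INHBA, SMADs, FOXH1, FST, FSTL3, SKI, BAMBI, T, MESP1) and the copies of the 10 genes were chosen after their values were seen. Alternatives were a replicate block, other filters, scalings, pseudocounts and detection limits, and leaving out each library. A sequence comparison of CST1 with a copy is given by its counts, and the bases themselves are not reported here.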

Additional observations from a re-analysis of the deposited data

How the results depend on the processing

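The fit across all genes called 20 genes (16 lower, 4 higher), and this count depended on the settings. It was 0 without the filter (2739 at an unadjusted p under 0.05) and 31 with quantile normalization. Leaving out 1 library gave between 0 and 14: 0 without DMSO replicate 1 (1168 at an unadjusted p under 0.05), 9 without SB replicate 2, 10 without SB replicate 1 and 14 without DMSO replicate 2. In such fits the lone library is assumed to vary like the other group. With a replicate block the count was 1564 (744 lower, 820 higher). The labels do not say that equal numbers share a culture or day. Same-numbered libraries deviated together (r = 0.53 over 14909 genes, 2 pairs), which 2 pairs cannot establish as a pairing.

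The list counts with the replicate block stand beside 1564 called of all 14909 tested genes. They were 4 of 21 for the pathway (4 lower), 4 of 12 for mesendoderm (2 lower, 2 higher) and 12 of 20 for endoderm (12 lower). For pluripotency 1 of 9 was called (higher) and for lipocalins 1 of 4 (lower), and no cystatin was called. Of the endoderm genes, 0 in place of 4 were called without the filter and in each fit without 1 library (0 to 0). Quantile normalization called 1 mesendoderm gene. The cause was not tested.

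Detected genes numbered 7 with DMSO and 6 with SB at 0.1 FPKM, and 0 with SB at 5 FPKM. A block cannot change a difference of group means in this balanced design. Of 65 log2 differences of the 10 genes under the other alternatives, 52 moved by less than the replicate spread, 11 by more (10 of them with the pseudocount of 0.1) and 2 changed sign: CER1 ranged from -0.1751 to 0.0016 (without DMSO replicate 2) and NODAL from -0.0415 (without SB replicate 1) to 0.1515 when 1 library was left out. Leaving out 1 of the 2 libraries of a group cannot move a difference by more than the replicate spread. For those fits the outcome was therefore fixed in advance and is no measure of stability. The 5 genes under the filter had no value with quantile normalization. CER1, GSC, NODAL and EOMES had 12 fragments or fewer in every library, and CST1 had at most 9 and 11 in the SB libraries, which limits the precision of its ratio. In either group 2 libraries leave no outlier check.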

Other observations

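Of 8 listed blood markers 7 were tested, 6 of them higher in both SB libraries and 1 overlapping, against 21.5% higher of all tested genes, and the median log2 difference was 0.63. CD33, a myeloid surface protein, stood at 2.87 and 2.78 FPKM with DMSO and at 6.22 and 8.48 FPKM with SB (limma adjusted p 0.2). RUNX1, the factor of the endothelial-to-hematopoietic transition, stood at 35.3 and 33.6 FPKM with DMSO and at 69.8 and 53.6 FPKM with SB (adjusted p 0.28). In limma 0 of the 7 passed the adjustment and 5 were higher at an unadjusted p under 0.05, against 9.96% of all tested genes in either direction. The 9 endothelial markers summed to 1789 and 1625 FPKM with DMSO and to 1636 and 1515 FPKM with SB, and 7 of them overlapped between the groups.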
